A study of Mus musculus with 6 samples.

Results

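The SLC25 proteins are the carriers of the inner mitochondrial membrane, and the genes described here are the rows of the deposited gene table whose symbol begins with Slc25a followed by a number. The rule found 45 such genes among the 18493 in the table. All 45 were placed on the mouse genome (GRCm38.p6, the build also called mm10) through their Entrez identifiers. They were compared between regulatory T (Treg) cells labelled as a Treg-specific knockout of transketolase and Treg cells labelled wild type. Of the 45, 39 had enough reads to be tested and 6 did not.

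Most SLC25 carriers swap a metabolite of the matrix for one of the intermembrane space, so that the family links the tricarboxylic acid cycle, oxidative phosphorylation, heme and iron-sulfur cluster synthesis and one-carbon metabolism with the cytosol. The proteins are encoded in the nucleus, are built of repeats of a similar fold and are inserted into the inner membrane by the TIM22 complex. In T cells, mitochondrial metabolism is known to bear on Treg function. The enzyme targeted here, transketolase (gene Tkt), is a cytosolic enzyme of the pentose phosphate pathway, in its non-oxidative part.

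RNA came from CD4+CD25+YFP+ cells sorted by flow cytometry from spleen and lymph node of C57BL/6 females at 7 weeks of age. The cKO mice were Foxp3cre/+ TKTfl/fl, in which Cre under control of the Foxp3 locus is meant to delete Tkt in Treg cells, and the WT mice were Foxp3cre/+ without the floxed alleles as far as the labels say. There were 3 libraries of each. Mice of both groups thus carried the Cre, on one of their X chromosomes, and the design text calls both groups chimeric; YFP marks the cells that use the Cre allele. The labels do not say whether a library holds 1 animal or a pool, and p-values here reflect library-to-library spread, which may be technical. In such bulk samples, fewer cells of a type and less RNA per cell cannot be told apart.

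The libraries held 17647866 to 18215168 estimated reads in cKO and 17180577 to 17715571 in WT. Tkt stood at 31.9 to 52.5 CPM (counts scaled to the size of the library) in cKO against 97.1 to 126 CPM in WT, with no overlap. The means were 43.0 ± 10.4 CPM in cKO and 114.6 ± 15.4 CPM in WT (SD, n = 3 each), so that part of the transcript was still counted in cKO, and its adjusted p of 0.0516 in edgeR's quasi-likelihood test was just over the threshold of 0.05. Reads over the whole gene enter this value, and the floxed part is not given in the labels. Foxp3 (559 to 676 CPM in cKO, 458 to 686 CPM in WT) and Cd4 (735 to 844 CPM in cKO, 769 to 931 CPM in WT) were abundant in every library. The libraries cKO1 and WT2 lay furthest from cKO3, WT1 and WT3, with cKO2 in between. On the first principal component of all genes tested (36.09% of the variance), cKO1 and WT2 were at 33.25 and 25.42 and cKO2 at 8.107. The libraries cKO3, WT1 and WT3 were at -18.44, -25.91 and -22.42. Tnfaip3, an inducible inhibitor of NF-kappaB, was at 4612 CPM in cKO1 and 4898 CPM in WT2 but at 1152 to 2332 CPM elsewhere. The heat shock gene Hspa1a was at 5.37 CPM in cKO1, 12.7 CPM in WT2 and 26.5 CPM in cKO2. In cKO3, WT1 and WT3 it was at 125 to 163 CPM. Erythroid transcripts marked cKO1 as well, with a summed level of 197 CPM over 6 genes against 0.277 to 5.54 CPM in the other libraries.

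In Treg cells of both genotypes, 2 genes, Slc25a3 and Slc25a5, gave a large part of the family's reads (means of 33.5% in cKO and 33.8% in WT). Levels are compared between genes as FPKM, which divides the reads by length and depth. The length used is not given and did not stay the same for each gene in all libraries. Slc25a27, for instance, had 30.9 CPM and 5.41 FPKM in cKO1 but 24.1 CPM and 5.45 FPKM in cKO2. The phosphate carrier gene Slc25a3, which brings phosphate into the matrix for ATP synthesis, had 240.5, 224 and 201 FPKM in cKO1, cKO2 and cKO3 against 210.2, 283 and 210.4 FPKM in WT1, WT2 and WT3. Slc25a5, encoding the ADP/ATP translocase ANT2, had 208, 213 and 207 FPKM in cKO against 198, 225 and 199.6 FPKM in WT. The ranges of Slc25a3 and Slc25a5 overlapped, so their order is not settled. Next came Slc25a4, encoding the translocase ANT1 of heart and muscle, at 46 ± 3.99 FPKM in cKO and 51.4 ± 3.69 FPKM in WT (SD, n = 3 each). These 3 genes serve ATP synthesis, and their class took 36.7% of all reads of the family.

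A second tier of carriers lay close together, and its neighbours could not be ordered. Slc25a11, the exchanger of oxoglutarate and malate, averaged 30.1 ± 2.54 FPKM in cKO and 31.8 ± 4.47 FPKM in WT. Slc25a22, a glutamate carrier, averaged 29.9 ± 0.828 FPKM in cKO and 31.2 ± 2.35 FPKM in WT. The iron importer mitoferrin 2 (Slc25a28) averaged 27.1 ± 0.451 FPKM in cKO and 30.1 ± 1.71 FPKM in WT. The glutathione importer Slc25a39 followed with 26.8 ± 1.32 FPKM in cKO and 26.8 ± 3.06 FPKM in WT (SD, n = 3 each throughout). In all, 21 of the 45 genes had a mean over 10 FPKM across the 6 libraries, and 37 were over 1 FPKM.

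**Figure D1:**
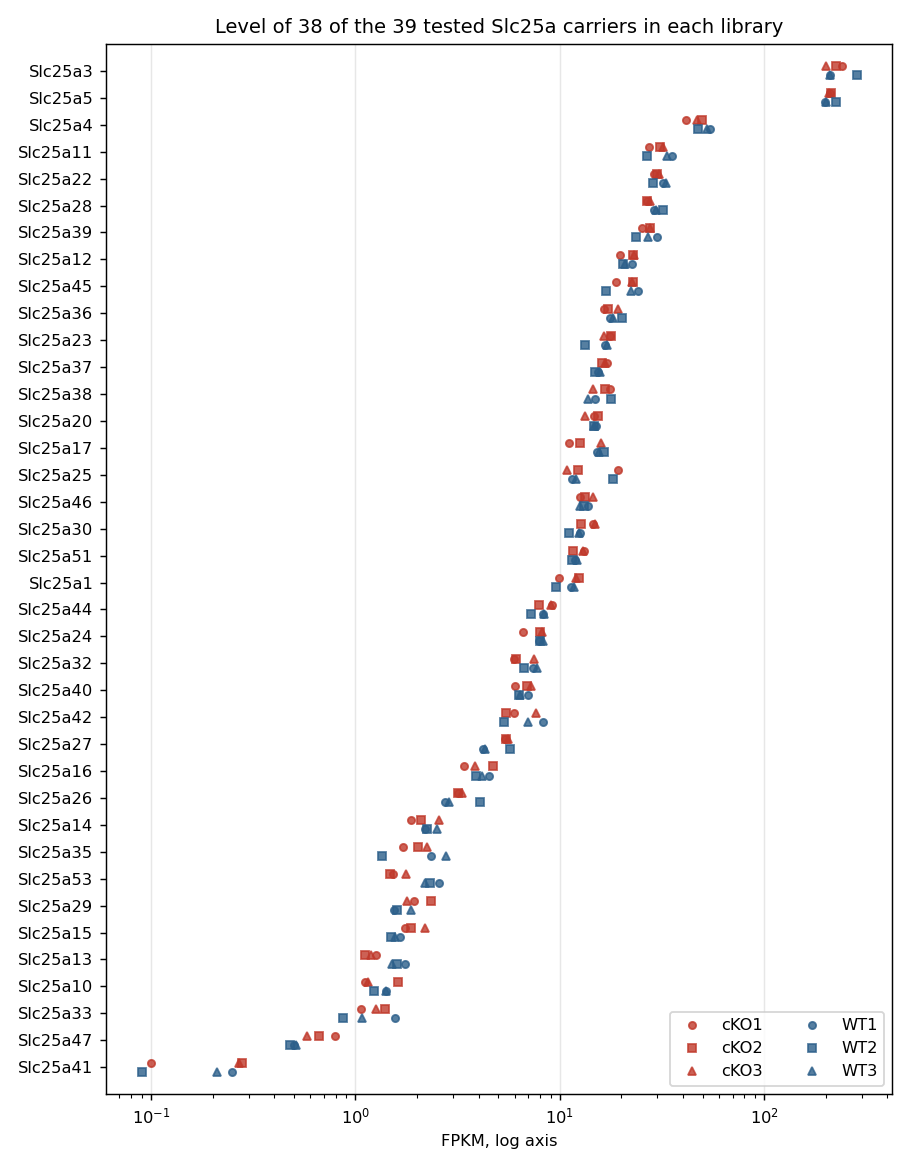
FPKM of 38 of the 39 tested carriers on a log axis, 1 row per gene in order of mean level, with the 3 cKO libraries (red) drawn above the 3 WT libraries (blue) and a symbol for each library. Slc25a3 and Slc25a5 are the 2 highest rows, and the red and blue points overlap in most rows.

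The summed level of the family was alike in both genotypes. It came to 1812, 1741 and 1728 CPM in cKO1, cKO2 and cKO3 against 1724, 1900 and 1723 CPM in WT1, WT2 and WT3, with means of 1760.2 ± 45.3 CPM in cKO and 1782 ± 102 CPM in WT (SD, n = 3 each). WT2 was the highest and cKO1 the second highest, and the groups overlapped. The exact permutation test over libraries, two-sided, gave p = 1.0, where 3 against 3 libraries cannot go below 0.1. Without the 2 most abundant genes, Slc25a3 and Slc25a5, the sum was 1181, 1149.6 and 1181 CPM in cKO against 1177, 1190.1 and 1168 CPM in WT (exact permutation p = 0.7).

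No carrier passed the test between genotypes. Of 39 tested, 0 were called at an adjusted p under 0.05 by edgeR's quasi-likelihood test, where 0.21% of all 12887 genes tested were called (0.00776% higher and 0.202% lower in cKO). DESeq2 also called 0 of the 39, against 1.39% of all genes, but it gave no adjusted p for Slc25a41 and so could not call it. With limma-voom 0 were called, against 0.147% of all genes. The lowest adjusted p in the family was 0.519. At an unadjusted p under 0.05 there were 2 members, both lower in cKO, which is 5.13% of those tested against 5.01% of all genes lower in cKO, 2.68% higher in cKO and 7.69% in either direction. The fitted log2 fold changes (cKO over WT) ran from -0.46 to 0.45, with 21 above and 18 below 0. Their median was 0.015, against 0.004 over all genes tested, and the median size of the change without its sign was 0.0951 against 0.105. In 7 of the 39 the cKO and WT libraries did not overlap in CPM, 3 with cKO above and 4 with cKO below WT; this is 17.9%, against 14.2% of all genes, of which 6.06% had cKO above and 8.12% had cKO below WT.

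A p that misses the threshold does not show that levels were the same, and the intervals give what the data still allow. The 95% interval of the fold change lay wholly within 1.5-fold in either direction for 28 of the 39 carriers. It lay within 2-fold for 37. The exceptions were Slc25a47 and Slc25a41, whose intervals reached log2 values of 1.13 and 1.51 and which had the lowest read counts of the 39. The median half-width of the interval was 0.28 on the log2 scale.

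**Figure D2:**
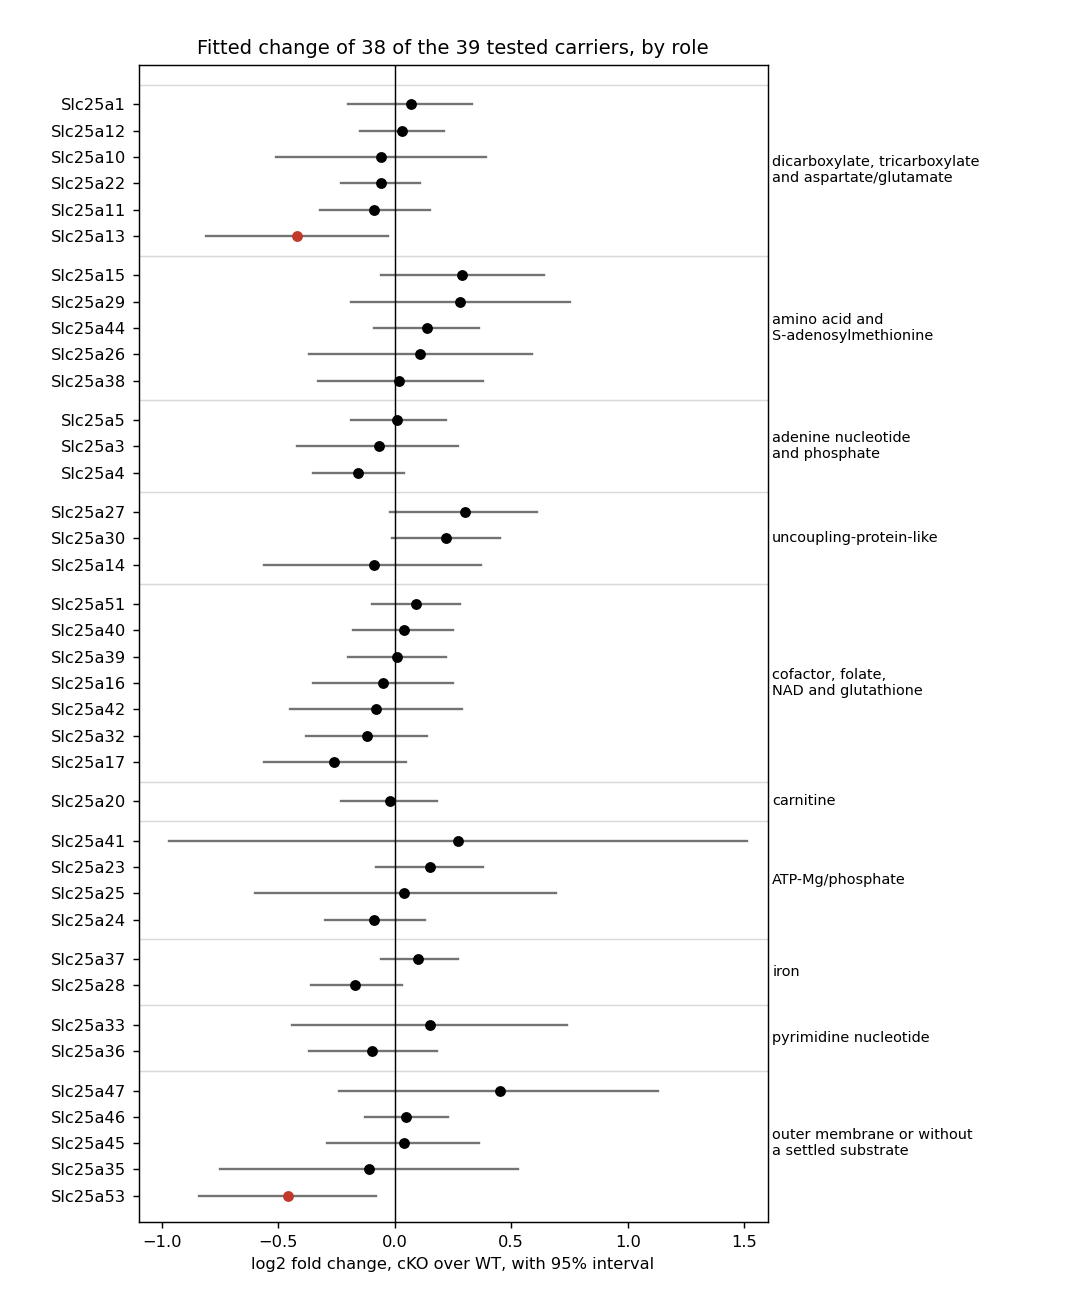
Fitted log2 fold change (cKO over WT) of 38 of the 39 tested carriers, each as a point with its 95% interval as a line, in blocks by role of the protein. Red points have an unadjusted p under 0.05 (Slc25a53 and Slc25a13); none had an adjusted p under 0.05.

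The member with the lowest p was Slc25a53, a carrier whose substrate is not settled, on chromosome X from 136981116 to 137038302. It stood at 4.86, 4.33 and 5.37 CPM in the cKO libraries against 6.92, 6.96 and 6.11 CPM in the WT libraries, all cKO libraries being below all WT libraries. The fitted log2 fold change was -0.46 ± 0.16 (SE; 95% interval -0.84 to -0.08), with an adjusted p of 0.519 in edgeR's test (0.0232 before adjustment). The counts behind it were 79.45 to 96.45 in cKO and 108.55 to 124.76 in WT.

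Slc25a13 showed the second lowest p. Its product, citrin, exchanges aspartate for glutamate in the malate-aspartate shuttle, which moves reducing equivalents from cytosolic NADH into mitochondria. It stood at 4.07, 3.49 and 3.68 CPM in cKO against 5.27, 5.08 and 4.67 CPM in WT, again without overlap (log2 fold change -0.42 ± 0.17 SE, 95% interval -0.81 to -0.03; edgeR adjusted p = 0.605, 0.0397 before adjustment). The gene lies on chromosome 6 from 6041218 to 6217304. Its paralog Slc25a12 (aralar), which does the same exchange and was far more abundant, stood at 60.5, 67.4 and 66.9 CPM in cKO against 65.9, 63.0 and 61.8 CPM in WT, with overlapping groups and an interval of -0.15 to 0.21; it is named beside Slc25a13 with its values known.

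Of the uncoupling-protein-like carriers, Slc25a30 (described from mouse kidney as KMCP1) was the one whose groups did not overlap. It stood at 26.5, 22.6 and 26.4 CPM in cKO against 22.4, 20.2 and 22.3 CPM in WT (log2 fold change 0.22 ± 0.10 SE, edgeR adjusted p = 0.668). The lowest cKO library was only just above the highest WT library. Slc25a27 (UCP4), known from brain, stood at 30.9, 24.1 and 29.3 CPM in cKO against 19.9, 25.9 and 22.8 CPM in WT; WT2 was above cKO2, and the adjusted p was 0.680 (log2 fold change 0.30 ± 0.13 SE). Slc25a14 (UCP5) averaged 3.25 ± 0.472 CPM in cKO and 3.47 ± 0.228 CPM in WT.

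In the class of adenine nucleotide and phosphate carriers, the 3 tested genes had log2 fold changes of -0.16 to 0.01. Slc25a4 stood at 46.7, 53.6 and 50.1 CPM in cKO against 58.4, 53.0 and 56.5 CPM in WT (log2 fold change -0.16 ± 0.08 SE, adjusted p = 0.772), with cKO2 above WT2. Slc25a5 had an interval of -0.19 to 0.22. For Slc25a3, whose WT2 and cKO1 libraries were high, the interval was wider, -0.42 to 0.27.

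The carriers of dicarboxylates, tricarboxylates, aspartate and glutamate had 6 tested members with log2 fold changes of -0.42 to 0.07. Apart from Slc25a13, none had a p under 0.05. Slc25a22 stood at 74.5, 74.7 and 75.2 CPM in cKO against 78.6, 72.9 and 82.5 CPM in WT. Slc25a11 stood at 45.9, 50.9 and 52.3 CPM in cKO against 56.9, 46.4 and 54.9 CPM in WT, the 2 lowest values being those of cKO1 and WT2. Slc25a1, which exports citrate for fatty acid and sterol synthesis, averaged 19.1 ± 1.90 CPM in cKO and 18.2 ± 1.51 CPM in WT, and the dicarboxylate carrier Slc25a10 averaged 5.22 ± 1.05 CPM in cKO and 5.44 ± 0.309 CPM in WT (SD, n = 3 each).

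Amino acid carriers and the S-adenosylmethionine carrier Slc25a26 made up a class with 5 tested members. All had fitted changes above 0 (0.02 to 0.29), and none was called. Over all genes tested, 48.6% had a fitted change below 0. Leaving out single libraries was followed only for Slc25a38 and Slc25a15 of this class. The change of Slc25a38 turned below 0 in some of these fits, while that of Slc25a15 stayed at 0.20 to 0.34. Slc25a15, the exchanger of ornithine and citrulline of the urea cycle, stood at 6.28, 6.43 and 7.52 CPM in cKO against 5.71, 5.44 and 5.41 CPM in WT. Every cKO library was above every WT library, with a log2 fold change of 0.29 ± 0.15 (SE) and an adjusted p of 0.772. Slc25a38, which brings glycine into mitochondria for heme synthesis, stood at 37.0, 31.8 and 27.6 CPM in cKO against 29.1, 37.7 and 28.1 CPM in WT, with cKO1 and WT2 highest. Slc25a29, a carrier of basic amino acids, averaged 3.98 ± 0.567 CPM in cKO and 3.28 ± 0.308 CPM in WT, Slc25a44, linked to branched-chain amino acids, averaged 31.0 ± 2.77 CPM in cKO and 28.3 ± 1.59 CPM in WT, and Slc25a26 averaged 5.56 ± 0.489 CPM in cKO and 5.16 ± 1.10 CPM in WT (SD, n = 3 each).

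The 8 carriers of cofactors, folate, NAD and glutathione were all tested, with log2 fold changes of -0.26 to 0.09. The lowest was Slc25a17, a carrier of coenzyme A and related nucleotides in the peroxisome rather than the mitochondrion, at 18.9, 20.7 and 25.8 CPM in cKO against 24.6, 28.1 and 25.6 CPM in WT (-0.26 ± 0.13 SE, adjusted p = 0.751). Here cKO3 reached the level of the WT libraries, and the log2 fold change was -0.40 without it and -0.16 without cKO1. The NAD carrier Slc25a51 stood at 61.0, 51.8 and 57.3 CPM in cKO against 52.5, 53.0 and 54.1 CPM in WT. Slc25a39 stood at 39.4, 41.3 and 41.6 CPM in cKO against 44.3, 36.7 and 40.5 CPM in WT, and its paralog Slc25a40 averaged 18.6 ± 1.29 CPM in cKO and 18.2 ± 0.808 CPM in WT. The folate carrier Slc25a32 averaged 27.1 ± 3.67 CPM in cKO and 29.5 ± 1.34 CPM in WT. Of the carriers linked to coenzyme A, Slc25a42 averaged 22.5 ± 3.19 CPM in cKO and 23.9 ± 4.22 CPM in WT, and Slc25a16 averaged 12.1 ± 1.57 CPM in cKO and 12.5 ± 0.737 CPM in WT.

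The 2 mitoferrins, which import iron for heme and iron-sulfur clusters, had fitted changes of opposite sign, and neither was called. Slc25a28 stood at 56.5, 53.8 and 56.1 CPM in cKO against 58.9, 68.5 and 59.5 CPM in WT, without overlap (log2 fold change -0.17 ± 0.08 SE, adjusted p = 0.747). Without WT2, its highest library, the log2 fold change was -0.09. Slc25a37 (mitoferrin 1), known as the form of developing red cells, stood at 92.2, 82.6 and 86.6 CPM in cKO against 79.4, 81.2 and 82.8 CPM in WT (log2 fold change 0.10 ± 0.07 SE, adjusted p = 0.844). Its highest library was cKO1, which also held the erythroid transcripts. In that library the erythroid genes Hba-a1 and Alas2 were at 83.6 and 3.51 CPM, and over all 6 genes of the list the sum was 3.33 to 197 CPM in cKO and 0.277 to 5.54 CPM in WT; their part in the value of Slc25a37 was not tested.

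Among the ATP-Mg/phosphate carriers, Slc25a23 stood at 62.1, 61.3 and 56.6 CPM in cKO against 55.8, 47.4 and 58.5 CPM in WT (log2 fold change 0.15 ± 0.10 SE, adjusted p = 0.824), with WT3 above cKO3; without WT2 the log2 fold change was 0.07. Slc25a24 averaged 25.8 ± 2.39 CPM in cKO and 27.4 ± 0.816 CPM in WT. Slc25a41 was near the detection limit, at 0.291, 0.763 and 0.724 CPM in cKO against 0.666, 0.239 and 0.563 CPM in WT. The carnitine carrier Slc25a20, which fatty acid oxidation needs, stood at 26.9, 27.1 and 23.2 CPM in cKO against 26.1, 26.7 and 25.7 CPM in WT, with an interval of -0.23 to 0.18.

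The pyrimidine nucleotide carriers differed widely in abundance from each other. Slc25a36 stood at 118, 112 and 120.5 CPM in cKO against 112, 148 and 114 CPM in WT, with 1 high library, WT2. Slc25a33 stood at 1.72, 1.61 and 1.65 CPM in cKO against 1.85, 1.35 and 1.37 CPM in WT; 14.9% of its exonic bases overlap an antisense gene, and its value is uncertain, since the labels do not say that reads were counted by strand. Among the carriers of the outer membrane or without a settled substrate, Slc25a46, an outer membrane protein of mitochondrial dynamics, stood at 46.2, 45.8 and 49.0 CPM in cKO against 46.2, 47.7 and 42.6 CPM in WT. Slc25a47, known mainly from liver, stood at 1.28, 1.04 and 0.891 CPM in cKO against 0.776, 0.777 and 0.788 CPM in WT, all cKO libraries being higher (log2 fold change 0.45 ± 0.29 SE, adjusted p = 0.829), on 16 to 22 reads in cKO and 13 to 14 reads in WT. Slc25a45 averaged 45.8 ± 3.89 CPM in cKO and 44.7 ± 7.65 CPM in WT. Slc25a35 averaged 3.64 ± 0.377 CPM in cKO and 3.93 ± 1.24 CPM in WT, but 31.3% of its exonic bases overlap the antisense gene Rangrf, so its value is uncertain as well.

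**Figure D3:**
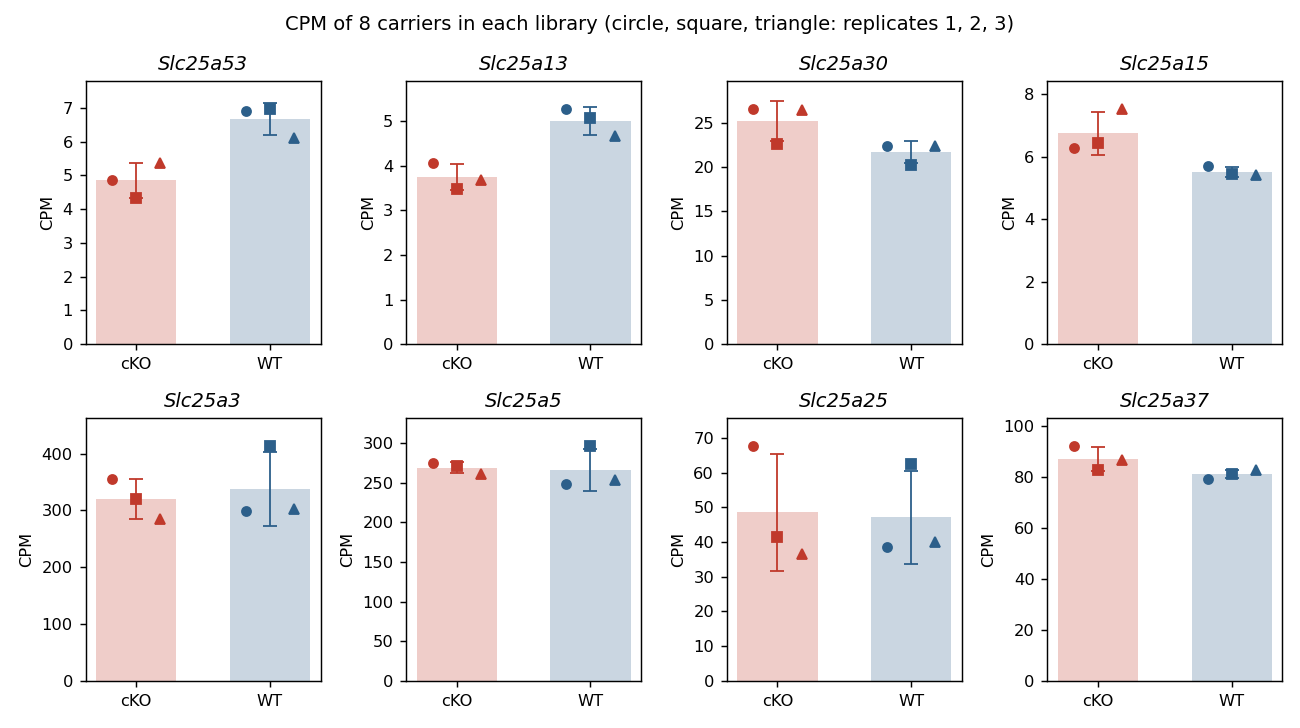
CPM of 8 carriers, with cKO (red) left of WT (blue), bars for means, error bars for the SD (n = 3) and a point for each library. The groups do not overlap for Slc25a53, Slc25a13, Slc25a30 and Slc25a15, while Slc25a3, Slc25a5 and Slc25a25 are highest in cKO1 and WT2.

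For several members the difference between libraries was larger than that between genotypes. The gene with the widest range among those over 10 CPM was Slc25a25, an ATP-Mg/phosphate carrier regulated by calcium, which is singled out here with its values known. It stood at 67.7, 41.5 and 36.5 CPM in cKO1, cKO2 and cKO3 against 38.7, 62.6 and 40.1 CPM in WT1, WT2 and WT3, a ratio of 1.85 between the highest and the lowest library. The libraries with the highest Slc25a25 were cKO1 and WT2, the same that had the highest Tnfaip3 and the lowest Hspa1a. Its interval between genotypes was -0.60 to 0.69. In 4 of the 39 carriers (Slc25a3, Slc25a5, Slc25a25 and Slc25a38) cKO1 and WT2 were the 2 highest libraries, which is 10.3% against 15.6% of all genes tested. In 7 carriers they were the 2 lowest, 17.9% against 14.0% of all genes.

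Most members varied little between libraries. The highest library was less than 1.5 times the lowest in 30 of the 39, or 76.9%, against 61.9% of all genes tested, a comparison that does not take the level of the genes into account. The median ratio of the highest to the lowest library was 1.31 for the carriers and 1.37 for all genes. The narrowest range was that of Slc25a12, with a ratio of 1.11, followed by Slc25a22 with 1.13.

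Of the 4 carriers that were highest in cKO1 and WT2, the promoters of Slc25a3, the most abundant carrier in CPM, and of Slc25a25, the one with the widest range, are shown. RefSeq start sites of GRCm38.p6 gave windows from 250 bases before to 50 bases after the start for 34 of the 45 carriers. In the sequences that follow, read 5′ to 3′ along the gene, capitals mark matches on either strand to any of 9 motifs. Slc25a25 has 3 annotated starts, and the windows of the outer ones are shown.
Slc25a3 (chr10:91123918-91124217, minus strand): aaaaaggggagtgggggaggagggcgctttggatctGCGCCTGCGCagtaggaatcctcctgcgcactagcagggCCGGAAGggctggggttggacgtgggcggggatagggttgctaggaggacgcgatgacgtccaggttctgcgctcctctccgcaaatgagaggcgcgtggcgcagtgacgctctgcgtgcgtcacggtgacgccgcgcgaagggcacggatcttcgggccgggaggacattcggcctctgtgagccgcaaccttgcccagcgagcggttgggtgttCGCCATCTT
Slc25a25 (chr2:32451421-32451720, minus strand, upstream start): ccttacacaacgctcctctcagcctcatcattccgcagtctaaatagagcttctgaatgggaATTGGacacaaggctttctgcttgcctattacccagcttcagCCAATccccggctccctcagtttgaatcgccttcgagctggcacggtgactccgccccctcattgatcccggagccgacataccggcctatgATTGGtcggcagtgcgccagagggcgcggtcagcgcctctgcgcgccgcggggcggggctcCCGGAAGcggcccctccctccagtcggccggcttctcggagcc
Slc25a25 (chr2:32424017-32424316, minus strand, downstream start): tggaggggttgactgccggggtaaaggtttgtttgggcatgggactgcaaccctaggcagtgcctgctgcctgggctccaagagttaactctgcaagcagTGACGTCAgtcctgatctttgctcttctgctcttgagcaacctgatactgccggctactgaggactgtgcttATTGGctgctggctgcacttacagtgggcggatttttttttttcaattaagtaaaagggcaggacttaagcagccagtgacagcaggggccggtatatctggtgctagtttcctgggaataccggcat

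The window of Slc25a3 held the NRF-1 motif, the ETS motif CCGGAAG and the YY1 motif AAGATGGCG, beginning 214 and 175 bases before and at base 42 after the start. The upstream window of Slc25a25 held CCGGAAG at base 8 and 3 CCAAT boxes. Its middle window (chr2:32431102-32431401), not printed, held 2 CCAAT boxes and none of the other motifs. Its downstream window held a full cAMP response element, TGACGTCA, that begins 150 bases before the start, and a CCAAT box. The window of Slc25a38 held CCGGAAG, and that of Slc25a5 held none of the 9. No matches in these windows overlapped each other.

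Shares were counted over 1 window per gene, the first listed, so that the downstream windows of Slc25a25 do not enter. CCGGAAG was in 17.6% of the 34 carriers, against 9.12% of all 27025 genes with a window; among tested genes it was in 20.7% of the 29 carriers, against 18.8% of 9900 genes. The NRF-1 motif was in 5.88% of the carriers against 4.78% of all genes, and in 3.45% of the tested carriers against 10.6% of the tested genes. The CCAAT box was in 17 of the 34 carriers against 37.9% of all genes, and in 51.7% of the tested carriers against 39.5% of the tested genes. The E-box CACGTG was in 17.6% of the carriers against 7.24% of all genes, and in 17.2% of the tested carriers against 10.1% of the tested genes. TGACGTCA, AAGATGGCG and the AP-1 motif TGAGTCA were each in 1 carrier, a tested one, or 3.45% of the tested carriers, against 3.23%, 3.30% and 3.31% of the tested genes. The NF-kappaB motif and the CArG box were in 0 of 34, against 0.385% and 0.0777% of all genes. A match describes letters in the window and no bound site.

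Related carriers were also compared by the ratio of their FPKM, for 8 pairs chosen with their values known. Such ratios carry any difference between libraries in the length behind the FPKM. The ratio of Slc25a12 to Slc25a13 was 15.7, 20.4 and 19.3 in cKO against 12.8, 12.8 and 13.8 in WT, so that the share of the citrin gene was smaller in every cKO library. The exact permutation p was 0.1, the smallest that 3 against 3 libraries can give, and 0.267 after adjustment over the 8 pairs. The ratio of Slc25a37 to Slc25a28 was 0.637, 0.602 and 0.604 in cKO against 0.537, 0.463 and 0.531 in WT (exact permutation p = 0.1, adjusted 0.267), without overlap. For Slc25a30 over Slc25a14 it was 7.74, 6.10 and 5.77 in cKO against 5.72, 4.91 and 4.94 in WT (exact permutation p = 0.1, adjusted 0.267), where cKO3 and WT1 nearly met. Each pair without overlap holds a gene whose own CPM groups did not overlap (Slc25a13, Slc25a28 and Slc25a30). These ratios thus restate those values and add no separate evidence. The ADP/ATP translocases, Slc25a5 over Slc25a4, gave 5.01, 4.30 and 4.43 in cKO against 3.63, 4.76 and 3.82 in WT, with overlapping groups (exact permutation p = 0.3). Groups overlapped in the remaining pairs too, Slc25a36 over Slc25a33, Slc25a39 over Slc25a40, and Slc25a23 and Slc25a25 over Slc25a24, with exact permutation p-values of 0.3 to 0.8.

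**Figure D4:**
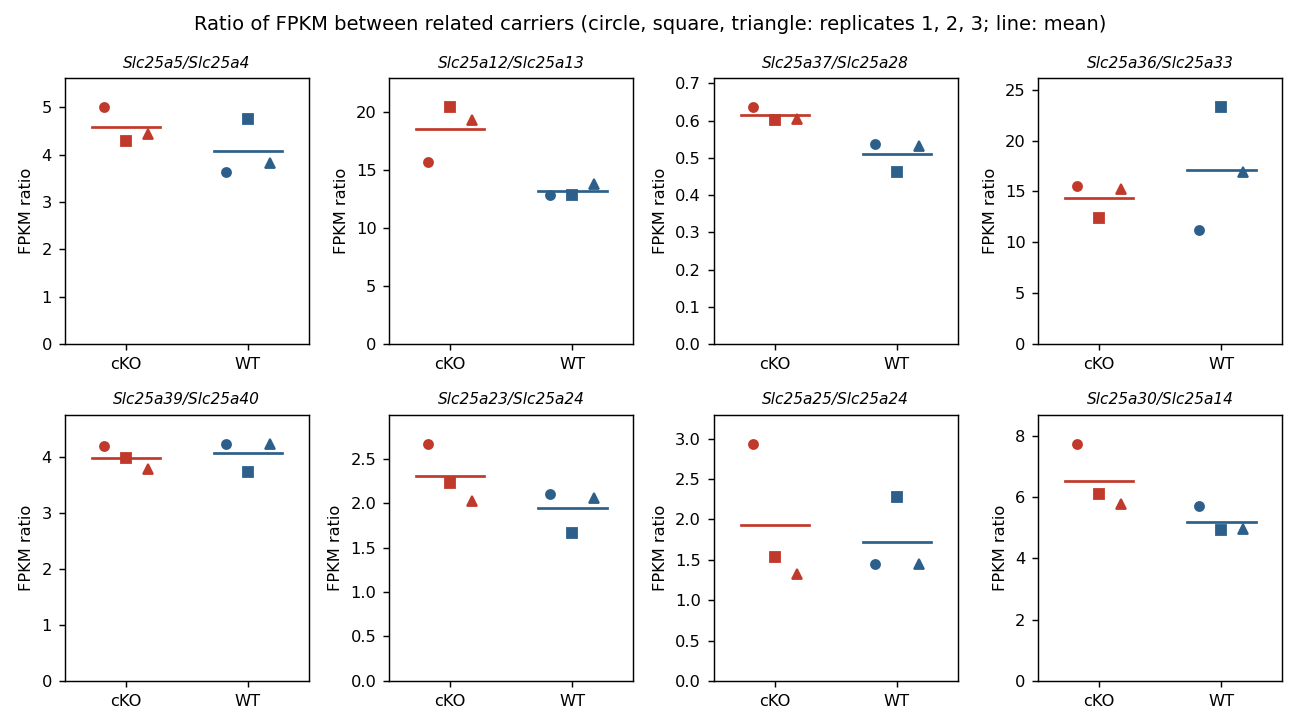
Ratio of FPKM between related carriers in each library, cKO (red) left of WT (blue), with a line at the mean of 3. Slc25a12/Slc25a13, Slc25a37/Slc25a28 and Slc25a30/Slc25a14 do not overlap between groups; the other pairs do.

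Too few reads were left for a test in 6 carriers. Slc25a43, without a settled substrate, had 4, 2 and 5 reads in cKO against 8, 5 and 11 in WT. In CPM its groups did not overlap, at 0.109 to 0.278 in cKO and 0.299 to 0.619 in WT. In reads they met, since cKO3 and WT2 had 5 each, so they are apart only after scaling. The ornithine carrier Slc25a2 had 8, 8 and 4 reads in cKO against 4, 7 and 5 in WT, and the glutamate carrier Slc25a18 had 6.66, 1.63 and 4.50 estimated reads in cKO against 2.22, 6.68 and 3.06 in WT. Slc25a31, encoding the testis form of the ADP/ATP translocase, had 1 read in cKO2 and 0 in the other 5 libraries. Slc25a21, a carrier of oxoadipate, had 1.01 reads in cKO1 and 1 in WT2, and Slc25a34, without a settled substrate, had 1 read in cKO2, 1 in WT1 and 2 in WT2, all others being 0. These 6 were not tested in the main fit, and their depth is too low to judge a difference. In the fit without a low-count filter, 45 carriers were tested and 0 were called.

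Other genes of mitochondrial transport were examined as 4 lists. Of their 54 tested genes edgeR called 0, where it called 0.21% of all genes tested. Of the carrier family members with other symbols, 3 were tested; the uncoupling protein gene Ucp2 was more abundant in CPM than any Slc25a gene, at 765, 888 and 849.7 CPM in cKO against 952, 672 and 905 CPM in WT, with overlapping groups (log2 fold change -0.01 ± 0.14 SE). The outer membrane members Mtch2 and Mtch1 had log2 fold changes of -0.07 and -0.04. Among other mitochondrial transporters 20 genes were tested, with a median of 0.02. In edgeR's test 1 of them had an unadjusted p under 0.05, against 7.69% of all genes tested. That gene was the sideroflexin Sfxn3, at 98.1, 87.2 and 84.8 CPM in cKO against 78.6, 69.6 and 80.4 CPM in WT (log2 fold change 0.24 ± 0.09 SE, edgeR adjusted p = 0.568). Its groups did not overlap, as in 14.2% of all genes tested. Letm1, which acts in cation exchange, had a change of 0.13.

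The machinery that imports the carriers, 13 genes of the TOM and TIM complexes, had a median log2 fold change of 0.04. Tomm40, the pore of the outer membrane, stood at 53.4, 53.5 and 53.8 CPM in cKO against 49.3, 43.8 and 51.4 CPM in WT, without overlap (0.15 ± 0.08 SE, edgeR adjusted p = 0.780). The chaperone Timm10 had a change of 0.36 ± 0.22 (SE). The 18 enzymes that make or use carrier substrates had a median of 0.04. Got1, the cytosolic aspartate aminotransferase of the malate-aspartate shuttle, stood at 52.0, 43.7 and 35.1 CPM in cKO against 50.8, 87.5 and 49.1 CPM in WT, with 1 high library, WT2 (log2 fold change -0.52 ± 0.25 SE, adjusted p = 0.719). Glud1, which converts glutamate to oxoglutarate, had a change of 0.11 ± 0.07 (SE). Its groups did not overlap either, at 203.4 to 209.9 CPM in cKO and 187.5 to 196.0 CPM in WT.

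Markers of other cell types were low but not absent, and 0 of them were called by edgeR's test, against 0.21% of all genes tested. B cell markers summed to 42.8 to 95.9 CPM in cKO and 52.4 to 76.1 CPM in WT. Of these, Bank1 stood at 2.33, 2.90 and 3.68 CPM in cKO against 1.44, 1.55 and 1.69 CPM in WT, without overlap (log2 fold change 0.92 ± 0.25 SE, adjusted p = 0.336). Cd79a had a log2 fold change of 0.95 ± 0.46 (SE), with 6.45 CPM in cKO1 but 2.24 and 2.06 CPM in cKO2 and cKO3. In WT it was at 1.73 to 1.94 CPM. The other tested B cell markers, Cd74 and Cd79b, had log2 fold changes of 0.33 ± 0.36 and -0.19 ± 0.18 (SE). Myeloid markers summed to 206 to 257 CPM in cKO and 211 to 221 CPM in WT, most of it from Ctss, also made by other cells. Csf1r stood at 9.07, 22.0 and 2.39 CPM in cKO against 1.65, 4.25 and 1.46 CPM in WT, with WT2 above cKO3 (log2 fold change 2.19 ± 0.78 SE, adjusted p = 0.527), and Lyz2 had a log2 fold change of 0.54 ± 0.37 (SE). CD8 T and NK cell markers summed to 30.8 to 36.8 CPM in cKO and 34.4 to 38.4 CPM in WT. Nkg7 stood at 9.83, 14.1 and 11.2 CPM in cKO against 21.4, 15.5 and 18.6 CPM in WT, without overlap (log2 fold change -0.66 ± 0.17 SE, adjusted p = 0.304), and Cd8b1 had a log2 fold change of 0.23 ± 0.12 (SE). Plasma cell markers summed to 1.46 to 2.29 CPM in cKO and 0.932 to 1.92 CPM in WT; of them Jchain was tested, with a log2 fold change of 1.33 ± 0.59 (SE). Stromal and endothelial markers summed to 11.8 to 13.6 CPM in cKO and 1.44 to 13.2 CPM in WT, with log2 fold changes of 1.18 ± 0.72 (SE) for Col1a1 and 1.14 ± 0.73 (SE) for Col3a1. The erythroid genes Hbb-bs and Hba-a2 had log2 fold changes of 4.81 ± 1.77 (SE) and 4.72 ± 1.86 (SE), with 37.9 and 65.1 CPM in cKO1 and at most 1.88 CPM in any other library. Fitted changes of the Treg markers Ikzf2 and Ctla4 were -0.21 ± 0.09 and -0.57 ± 0.37 on the log2 scale (SE). Ctla4 stood at 977, 739 and 492 CPM in cKO against 807, 1727 and 753 CPM in WT, with overlapping groups and WT2 highest. The other Treg markers listed, Cd3e, Foxp3, Il2ra and Cd4, had log2 fold changes of 0.06, 0.05, 0.01 and -0.11. The part of these cell types in the values of the carriers was not tested.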

How the data were processed

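The deposited table gives, for each of 6 libraries, the authors' estimated counts per gene, not normalized. It also gives FPKM, which the authors scaled by length and library depth. Both units were judged from the numbers in the table. The authors' group means in both units were not used. Per the submitters' processing notes, the tools were HISAT2 2.0.5, featureCounts 1.5.0-p3 and DESeq2 1.16.1 with mm10, in roles not given in the sources used here. Between 45.4% and 46.3% of values per library are not whole to within 0.01; the origin of the fractions is not stated in the labels or notes. Of the 45 carriers, 22 had whole counts in every library.

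Counts were rounded. In R 4.3.3 and edgeR 4.0.16, the 12887 of 18493 genes passing filterByExpr (minimum count 10) were scaled by TMM (CPM uses these factors) and tested by the quasi-likelihood F test with genotype as the only term; Benjamini-Hochberg adjustment ran over these 12887 genes, and the threshold was 0.05. Standard errors were derived from the F statistic. The code was tested on simulated counts. A carrier called too low failed that filter. Single values per library were compared by exact permutation tests. The estimated counts per library bound the precision.

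Values by library are given for the 10 tested members with the lowest p, the 8 with the highest FPKM, the most abundant of each of 10 classes, the 3 lowest tested and the 3 highest untested; others are given as means. One tested carrier is counted in the totals but not reported here by itself. Of each further list the 2 genes with the lowest p are named. Ucp2, Foxp3, Cd4, Cd3e, Il2ra, Cd79b, Cd74, Hba-a1, Alas2, Ctss, Tnfaip3 and Hspa1a were added with their values known. Members, classes and lists were chosen with earlier results of these data known. Alternatives were DESeq2 1.42.0, limma-voom (limma 3.58.1), other scalings and filters, the replicate number as a block, robust and newer quasi-likelihood fits, the FPKM with limma, and leaving out libraries. Motifs were searched in RefSeq promoter windows.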

Additional observations from a re-analysis of the deposited data

How the results depend on the processing

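No carrier and no gene of the further transport lists was called under the alternatives run for them (19 for the carriers; DESeq2, the block and leaving out single libraries for the lists); the lowest adjusted p of a carrier over all of them was 0.305, and at most 3 carriers had an unadjusted p under 0.05. The count of all genes called was 27 as reported, 179 with DESeq2, 19 with limma-voom, 43 without a low-count filter, 48 with robust empirical Bayes, 71 without WT2 and cKO1, 0 and 9 from the FPKM with pseudocounts of 0.1 and 1, 0 with the replicate number as a block (replicate block; 0 carriers called, lowest adjusted p 0.801) and 0 when any single library other than WT2 was left out, but 30 without WT2. Deviations of same-numbered libraries from their group means had r = -0.278, 0.0624 and 0.261, against -0.381 to 0.315 for the other pairs. With 3 libraries per group, this check cannot settle whether the numbers mark pairs. The median log2 fold change of the carriers ranged from -0.017 (without WT3) to 0.017 on leaving out 1 library. The log2 ratio of the summed level was -0.018 as reported, from -0.042 to 0.030 on leaving out 1 library and 0.009 without WT2 and cKO1.

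Of 454 values for 24 tested members under the alternatives, 13 changed direction, in 7 members, and 0 passed the threshold. Without WT2 and cKO1 together, Slc25a36, Slc25a39 and Slc25a3 stood at 0.04, -0.03 and 0.02. On leaving out 1 library the ranges were -0.09 to 0.17 for Slc25a38, -0.17 to 0.05 for Slc25a36, -0.03 to 0.10 for Slc25a5, -0.05 to 0.59 for Slc25a41, -0.07 to 0.05 for Slc25a20, -0.06 to 0.08 for Slc25a39 and -0.16 to 0.10 for Slc25a3. The cause of these changes was not tested. Depth limits mainly the 6 untested carriers and Slc25a41 and Slc25a47.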
